A study of Drosophila melanogaster with 16 samples.

Results

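The contractile apparatus of muscle is built from a few protein families, and the 35 genes described here encode the main ones in Drosophila melanogaster, together with factors that control them, anchor them or handle calcium. They were followed in ATAC-seq data from dissected adult fat body, an assay in which a transposase cuts DNA that is not packed away, so that more reads in a peak mean more accessible chromatin. A peak was counted for a gene when its midpoint lay in the gene or within 1000 bp of either end. By this rule 55 of the 8069 peaks of the authors' deposited table belonged to the 35 genes. All positions are on the dm6 build, and gene spans come from RefSeq's Release 6 plus ISO1 MT assembly, in which Unc-89 is listed as Obsc.

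The flies were w1118 females, kept as virgins and sorted into their condition within 8 hours of eclosion, where they stayed for 25 days. There were 4 groups of 4 libraries: flies at 11 °C with volatilised S-methoprene, an analog of juvenile hormone, flies at 11 °C with volatilised ethanol as vehicle, flies at 25 °C with S-methoprene, and flies at 25 °C with ethanol. Both treatments were 10 µL every 2 days, of 99% ethanol alone or with 39.4 mM S-methoprene in it. Each library pooled the fat bodies of 25 flies, chosen for their ovaries, which were regressed at 11 °C with ethanol and large in the other groups. Temperature and ovary state can therefore not be fully told apart.

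The question is which of these genes' peaks differ in accessibility between 11 °C, the diapause temperature, and 25 °C, the regular one. The authors' deposited table gives for each peak mean normalised reads per temperature, not split by drug treatment, and a false discovery rate (FDR) beside the log2 fold change the authors fitted. Single libraries are not listed in it. No spread between libraries can thus be shown, depth is unknown, and the authors' FDR is the only test. In that table the overall mean weighs the 25 °C libraries by 0.429, which is 3 parts to 4, although the labels list 8 libraries per temperature, and which libraries entered is not stated. A peak was called at an FDR under 0.05. Every fold change, ratio and log2 difference below is 25 °C over or minus 11 °C, so that a positive value, or a ratio above 1, means more reads at 25 °C.

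In a sarcomere, myosin thick filaments pull on actin thin filaments, and tropomyosin with the troponins makes this pull depend on calcium. Titin-like proteins span the sarcomere, and Z-discs anchor the thin filaments. Fat body lies beneath the body wall, close to its muscles. The MADS-box factor Mef2, best known as an activator of muscle genes, is also known to act in the fly fat body, so not every gene on the list is specific to muscle.

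Of the 35 genes, 17 had a peak and 18 had none among the 8069. The genes for the filaments themselves were mostly without one. None of the 4 muscle actin genes had a peak: Act57B and Act87E, used in larval and adult muscles, Act79B of leg muscles and Act88F of flight muscles. Of the 8 tropomyosin and troponin genes only the tropomyosin gene Tm1 had any. No peak was listed for Tm2, for up (troponin T), for wupA (troponin I) or for the troponin C genes TpnC41C, TpnC47D, TpnC73F and TpnC4. The titin-like genes bt (projectin) and sls (Sallimus), 52075 and 75931 bp long, were also without a peak. The rest without one were Mlc2 (the regulatory myosin light chain), Mf (myofilin, of the thick filament), Mlp60A (a muscle LIM protein), kon (a membrane protein needed for muscles to find their attachment sites) and RyR (the calcium release channel).

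Peaks were unevenly spread over the roles. The 25 genes for filaments, titin-like proteins and calcium handling had 13 peaks at 9 genes, and the 10 genes for Z-discs, regulators and attachment had 42 peaks at 8 genes. A peak was present at 48.6% of the 35 genes, against 59.4% of all protein-coding genes. Among genes under 2500 bp it was 1 of 7 muscle genes and 48.4% of protein-coding genes, and from 2500 to 5000 bp it was 3 of 7 and 72.4%. In the longest class, 50000 bp or more, 3 of 5 muscle genes and 70.3% of protein-coding genes had a peak. These are counts without a test. A peak counted for a short gene can also belong to a neighbour, and a gene without a peak in this table is not shown to be closed.

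**Figure D1:**
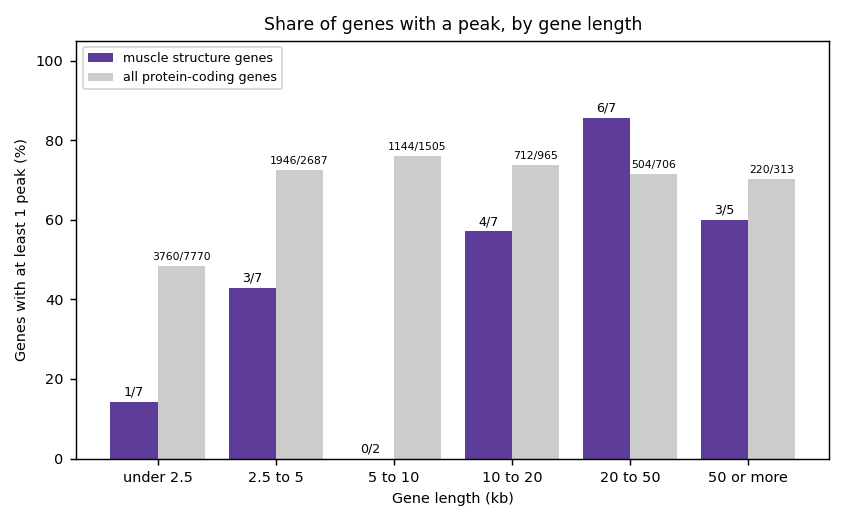
Share of genes with at least 1 peak (y axis, percent) by gene length (x axis, kb), for the 35 muscle structure genes (purple, left bar of each pair) and all protein-coding genes (grey, right bar), with counts above the bars. Muscle genes lie below protein-coding genes in each class but that of 20 to 50 kb, where 6 of 7 had a peak.

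Where the 35 genes did have peaks, the changed ones were mostly less accessible at 11 °C than at 25 °C. This list was chosen with earlier results of these data known. Of the 55 peaks, 2 were called higher at 11 °C, 18 were called higher at 25 °C and 35 were not called. That is 3.64% and 32.7%, against 10.0% and 12.2% of all 8069 peaks. The 18 lay at 9 genes: Mhc, Strn-Mlck, Zasp52, Zasp66, Mef2, how, mspo, Svil and Msp300. The 2 lay at Svil and Msp300, which thus held calls both ways. By gene, 2 of the 17 muscle genes with a peak had a call higher at 11 °C and 9 a call higher at 25 °C. Over all 8286 protein-coding genes with a peak it was 11.4% and 12.1%. These shares depend on peak number: with 4 or more peaks, as at 6 of the 17, they were 40.5% and 60.1% of protein-coding genes. Of the 13 peaks at filament, titin-like and calcium genes, 0 were called higher at 11 °C and 2 at 25 °C. Of the 42 at Z-disc, regulator and attachment genes it was 2 and 16, so most calls lay at the latter genes. In other lists of muscle genes, counted below, calls went both ways. Higher at 11 °C and at 25 °C there were 3 and 2 at other sarcomere genes and 5 and 4 at attachment genes. The dystrophin complex gave 3 and 3 and myoblast fusion genes 5 and 2. Excitation genes gave 2 and 4 and myogenic regulators 1 and 3. The median log2 difference, 25 °C minus 11 °C, was 0.11 over the 55 peaks and -0.02 over all peaks, with quartiles of -0.06 and 0.51 over the 55. In bulk tissue, fewer muscle nuclei and less open chromatin per nucleus cannot be told apart.

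**Figure D2:**
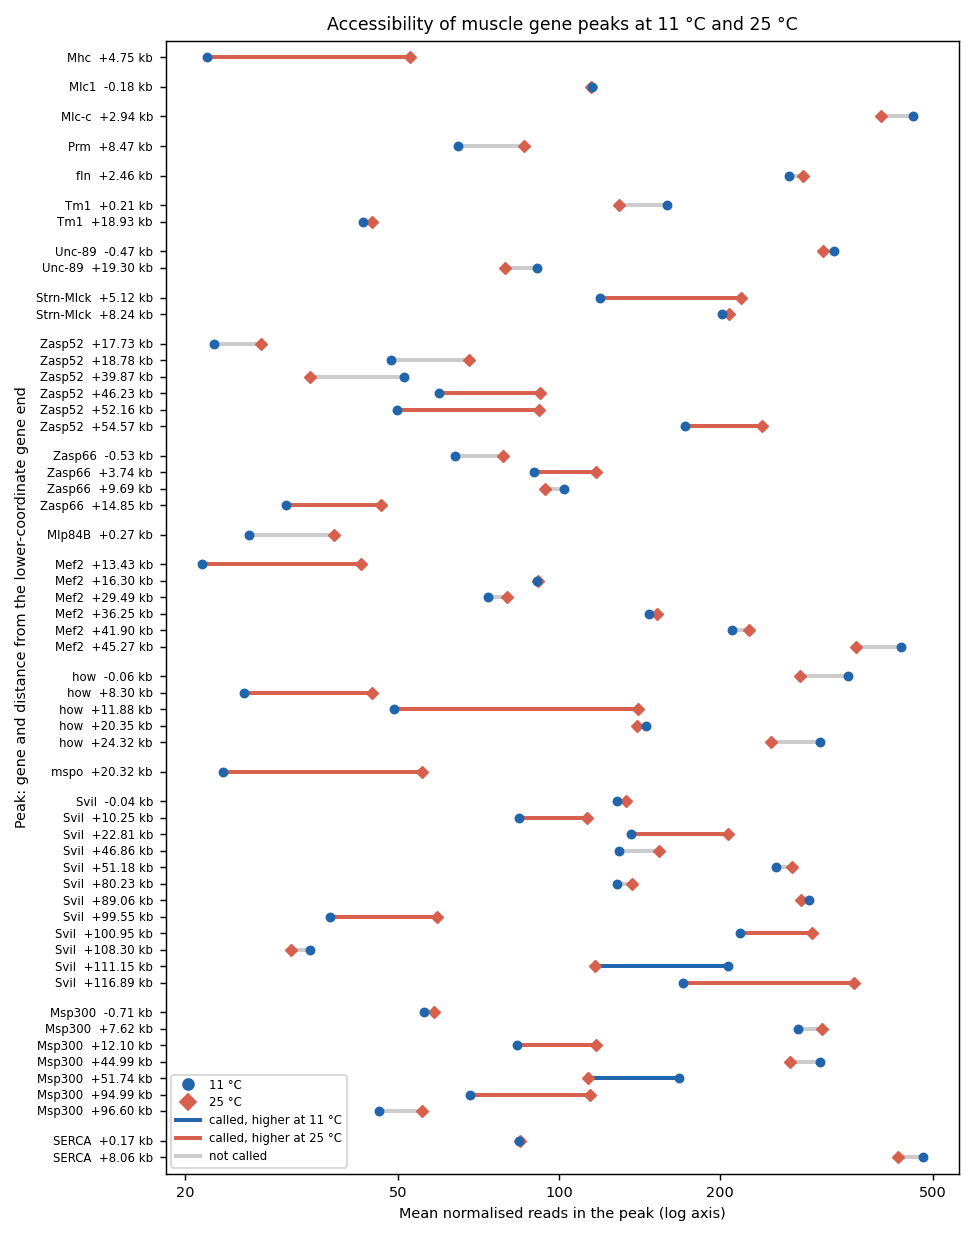
Mean normalised reads (x axis, log scale) at 11 °C (blue circles) and 25 °C (red diamonds) for each of the 55 peaks, named on the y axis by gene and distance from the gene's lower-coordinate end. Blue lines mark the 2 peaks called higher at 11 °C, red lines the 18 called higher at 25 °C and grey lines the 35 not called, without error bars, since libraries are not listed singly.

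Muscle gene peaks were weaker than the average peak, and weak peaks as a whole leaned to 25 °C. The median was 101 normalised reads over the 55 peaks and 163 over all peaks. With all peaks split by reads into 4 bins of equal size, 25 of the 55 fell in the lowest bin. There 0 of the 25 were called higher at 11 °C and 11 were called higher at 25 °C (44.0%), against 7.78% and 24.2% of all peaks in that bin. In the next bin 1 and 3 of 12 were called, against 11.2% and 12.6%. In the third bin it was 1 and 4 of 7, against 8.38% and 7.93%. None of the 11 muscle gene peaks in the highest bin was called, where all peaks gave 12.7% higher at 11 °C and 3.87% higher at 25 °C. The share called higher at 25 °C thus stood above that of all peaks in 3 of the 4 bins, in counts that are small above the lowest.

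**Figure D3:**
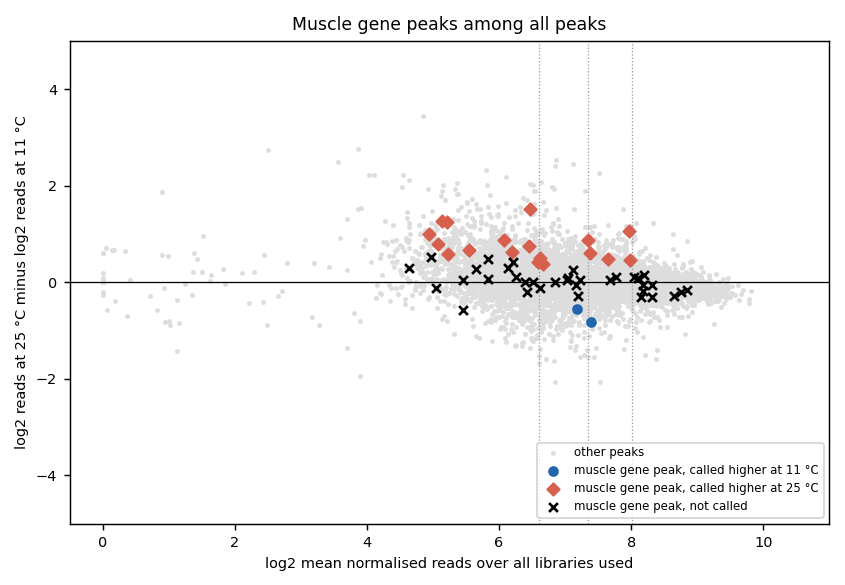
Each peak's log2 mean normalised reads over all libraries used (x axis) and its log2 difference, 25 °C minus 11 °C (y axis). Blue circles and red diamonds are muscle gene peaks called higher at 11 °C and at 25 °C, crosses are muscle gene peaks not called, light grey points are all other peaks, and dotted lines are the quartiles of reads. The muscle gene peaks with the most reads sit near or below 0 and are not called.

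Of the 20 called peaks, 18 lay inside a gene and away from its ends. Of 40 peaks inside their muscle gene and over 500 bp from its ends, 2 were called higher at 11 °C and 16 at 25 °C (5.0% and 40.0%). Peaks inside any protein-coding gene and over 500 bp from the end of every such gene gave 14.3% and 18.8%. In the lowest of the 4 bins by reads, 10 of 19 muscle gene peaks so placed were called higher at 25 °C, against 30.9% of all. In the next bins it was 3 of 9, 3 of 6 and 0 of 6, against 19.7%, 14.9% and 5.1%. Higher at 11 °C it was 0, 1, 1 and 0 from the lowest bin up, against 8.24%, 19.0%, 14.7% and 17.9%. Of 11 peaks within 500 bp of an end of their muscle gene, 0 were called higher at 11 °C and 2 at 25 °C, against 6.99% and 7.26% of peaks within 500 bp of any protein-coding gene end. These 2 were at Zasp52 and Zasp66. The gene table used gives no strand, exons or introns, so an end may be a start or a stop of transcription, and peaks inside genes were not split into exonic and intronic ones. Another gene was within reach of 22 of the 55 peaks and of 7 of the 20 called ones, and such a peak is not shown to act on the muscle gene.

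Among the thick filament genes, the muscle myosin heavy chain gene Mhc (2L, 16766566 to 16788766) held a single peak, which was less accessible at 11 °C. At 16771111 to 16771511, inside the gene and 4745 bp from its nearer end, the authors' deposited table lists 22.0 normalised reads at 11 °C and 52.6 at 25 °C, a ratio of 2.39. The fitted log2 fold change in the authors' deposited table was 1.03 with an FDR of 6.07e-07. Only 3.28% of all peaks have as few reads or fewer. The essential light chain gene Mlc1 had a peak 183 bp outside it, also near tau, with 115 reads at both temperatures in the authors' deposited table (FDR 0.974). Mlc-c, a light chain of non-muscle myosins, had a strong peak near its end, shared with Pop1 and mir-3645, with 459 reads at 11 °C and 399 at 25 °C in the authors' deposited table (FDR 0.0690). Prm, which encodes paramyosin, had a peak with 64.7 reads at 11 °C and 86.0 at 25 °C there (FDR 0.105 in the authors' deposited table). The peak counted for fln (flightin, a flight muscle protein) lay 796 bp outside it near Nca and CG7646, with 269 and 285 reads in the authors' deposited table at 11 °C and 25 °C (FDR 0.587). Within this group the heavy chain gene alone held a called peak.

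The thin filament and titin-like genes had 6 peaks at 3 genes, and 1 was called. Strn-Mlck encodes giant titin-like proteins and a kinase related to myosin light chain kinase (2R, 15946933 to 15989498). Its peak at 15951852 to 15952252, within the gene, had 119 reads at 11 °C and 219 at 25 °C in the authors' deposited table, a ratio of 1.83 with a fitted log2 fold change of 0.84 and an FDR of 1.26e-12. This was the second smallest FDR of the 55. Its other peak, at 15954969 to 15955369, had 202 reads at 11 °C and 208 at 25 °C in the authors' deposited table (FDR 0.782). Thus 1 of the 2 peaks of this gene was called and the other was not. Tm1 had a peak at its end, shared with MRG15 and l(3)neo43, with 159 reads at 11 °C and 130 at 25 °C in the authors' deposited table (FDR 0.140). Its internal peak had 43.0 and 44.6 reads at 11 °C and 25 °C in the authors' deposited table (FDR 0.762). Both peaks of Unc-89, the fly's obscurin gene, lay outside the gene. The authors' deposited table lists 326 reads at 11 °C and 312 at 25 °C for that near CG3860 (FDR 0.821). For that near CG4324 it was 90.8 and 79.1 reads at 11 °C and 25 °C in the authors' deposited table (FDR 0.501).

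The Z-disc and LIM genes held 11 peaks at 3 genes, of which 0 were called higher at 11 °C and 5 higher at 25 °C. Zasp52 and Zasp66 encode PDZ domain proteins of the Alp/Enigma family, which bind alpha-actinin at the Z-disc. Zasp52 (2R, 15762565 to 15817004) had 6 peaks, and the 3 nearest its upper-coordinate end were called. The authors' deposited table gives 59.6 reads at 11 °C and 92.2 at 25 °C for the peak at 15808590 to 15808990 (ratio 1.55, FDR 0.00284). For that at 15814521 to 15814921 it was 49.8 and 91.6 reads at 11 °C and 25 °C in the authors' deposited table (ratio 1.84, FDR 4.69e-05). The peak across the gene's end, at 15816932 to 15817332, had 172 reads at 11 °C and 240 at 25 °C in the authors' deposited table (ratio 1.40, FDR 0.00310). All 3 also lie within reach of the gene tun. The peaks at the other side of the gene, with 22.7 to 48.6 reads at 11 °C and 27.7 to 67.9 at 25 °C, were not called, nor was a middle peak with 51.4 reads at 11 °C and 34.2 at 25 °C (FDRs of 0.0858 to 0.676 in the authors' deposited table).

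At Zasp66 (3L, 8624371 to 8638813) 2 of 4 peaks were called, both with an FDR near the threshold. The peak at 8627914 to 8628314 had 89.8 reads at 11 °C and 117 at 25 °C in the authors' deposited table (ratio 1.30, FDR 0.0407). The peak 405 bp outside the gene, at 8639018 to 8639418, had 30.9 reads at 11 °C and 46.5 at 25 °C in the authors' deposited table (ratio 1.51, FDR 0.0262). Both calls end at an FDR under 0.01. Its other 2 peaks, near GAPsec and within reach of Cdc6, had FDRs of 0.149 and 0.604 in the authors' deposited table. Mlp84B, a muscle LIM protein gene, had a weak peak shared with Alh, with 26.4 reads at 11 °C and 38.0 at 25 °C in the authors' deposited table (FDR 0.116).

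The regulators Mef2 and how held 11 peaks, and in both genes weak internal peaks changed while the strongest peaks were not called. The peak with the smallest FDR and the largest ratio among the 55 lay in how (3R, 22042191 to 22079321), which encodes an RNA-binding protein of the STAR family needed in muscle and tendon cells. At 22053876 to 22054276 the authors' deposited table lists 49.1 reads at 11 °C and 140 at 25 °C, a ratio of 2.86 with a fitted log2 fold change of 1.44 and an FDR of 4.37e-22. A second internal peak, at 22050292 to 22050692, had 25.7 reads at 11 °C and 44.7 at 25 °C in the authors' deposited table (ratio 1.73, FDR 0.00333). The other 3 peaks of how had more reads. At the gene's lower-coordinate end there were 347 reads at 11 °C and 282 at 25 °C in the authors' deposited table (FDR 0.122). At 22066306 to 22066706 there were 308 and 249 reads at 11 °C and 25 °C in the authors' deposited table (FDR 0.0932).

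Mef2 (2R, 9913496 to 9958858) had 6 peaks, of which 1 was called. At 9926726 to 9927126, inside the gene, the authors' deposited table lists 21.5 reads at 11 °C and 42.6 at 25 °C (ratio 1.98, fitted log2 fold change 0.77, FDR 0.000572). The strongest peak of Mef2, at its upper-coordinate end and shared with Pdrg1 and Pal1, had 436 reads at 11 °C and 358 at 25 °C in the authors' deposited table (FDR 0.123). The 4 peaks between them had ratios of 1.01 to 1.08, with FDRs of 0.554 to 0.990 in the authors' deposited table. Most peaks of Mef2 were thus not called.

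**Figure D4:**
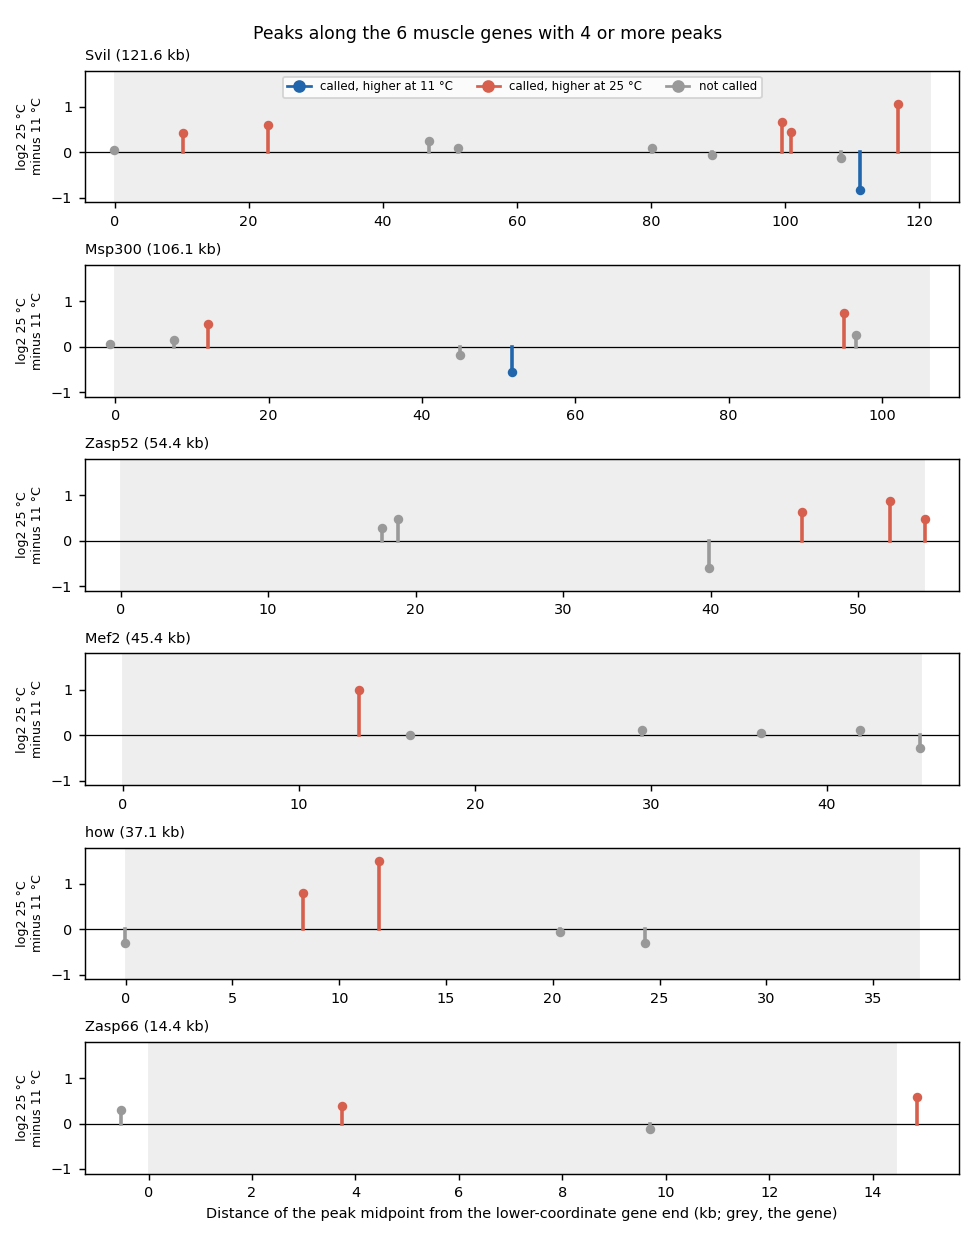
Log2 difference of mean normalised reads, 25 °C minus 11 °C (y axis), of each peak along the 6 muscle genes with 4 or more peaks, against the distance of the peak midpoint from the gene's lower-coordinate end (x axis, kb; the gene is grey). Blue stems are called higher at 11 °C, red stems higher at 25 °C and grey stems are not called. The blue stem of Svil stands between called red ones, and the red stems of Zasp52 stand at 1 end.

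The attachment and anchoring genes held 20 peaks at 3 genes, of which 2 were called higher at 11 °C and 8 higher at 25 °C. Svil encodes supervillin, a large actin-binding protein of the membrane skeleton that is not limited to muscle, and spans 121572 bp (3L, 2377655 to 2499226). Of its 12 peaks, 1 was called higher at 11 °C and 5 higher at 25 °C. The first was at 2488601 to 2489001, also near CG1146, with 206 reads at 11 °C and 117 at 25 °C in the authors' deposited table (ratio 0.565, fitted log2 fold change -0.74, FDR 2.78e-07). The most changed of the 5, at 2494348 to 2494748, had 170 reads at 11 °C and 355 at 25 °C in the authors' deposited table (ratio 2.09, fitted log2 fold change 0.99, FDR 1.49e-10). These opposite changes lay at 111 and 117 kb from the lower-coordinate end of the gene.

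The other 4 called peaks of Svil had smaller ratios. At 2400268 to 2400668 there were 136 reads at 11 °C and 207 at 25 °C in the authors' deposited table (ratio 1.52, FDR 4.66e-06). A neighbouring pair lies at 2477002 to 2477402 and 2478403 to 2478803, within reach of the cytochrome P450 gene Cyp4d20. The authors' deposited table gives 37.3 reads at 11 °C and 59.0 at 25 °C for the first (ratio 1.58, FDR 0.00314). For the second it was 218 and 297 reads at 11 °C and 25 °C in the authors' deposited table (ratio 1.37, FDR 3.41e-05). The last, at 2387703 to 2388103, had 84.2 reads at 11 °C and 113 at 25 °C in the authors' deposited table (ratio 1.34, FDR 0.0135). The 6 peaks of Svil without a call had ratios of 0.921 to 1.19, and they were as many as the called ones.

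Msp300 encodes a giant nesprin that anchors muscle nuclei to the cytoskeleton, and spans 106126 bp (2L, 5100877 to 5207002). Its 7 peaks held 1 call higher at 11 °C and 2 higher at 25 °C. The peak at 5152416 to 5152816, in the middle of the gene, had 168 reads at 11 °C and 113 at 25 °C in the authors' deposited table (ratio 0.677, fitted log2 fold change -0.53, FDR 1.12e-05). The peak at 5195669 to 5196069 had 68.0 reads at 11 °C and 114 at 25 °C in the authors' deposited table (ratio 1.68, FDR 2.42e-06), and sncRNA:128 is within its reach. The peak at 5112772 to 5113172 had 83.6 and 117 reads at 11 °C and 25 °C in the authors' deposited table (ratio 1.40, FDR 0.00541). The most accessible peaks of Msp300, with 280 and 307 reads at 11 °C and 310 and 270 at 25 °C, had FDRs of 0.406 and 0.326 by the authors' deposited table and were not called.

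The muscle attachment gene mspo, which encodes the secreted protein M-spondin (2R, 14671396 to 14713622), resembled Mhc in having a lone, weak and changed peak. At 14691521 to 14691921 the authors' deposited table lists 23.5 reads at 11 °C and 55.5 at 25 °C (ratio 2.36, fitted log2 fold change 1.05, FDR 9.09e-08). For calcium handling, SERCA, which encodes the pump that returns calcium to the sarcoplasmic and endoplasmic reticulum of all cells, had 2 peaks without a call. Its internal peak held the most reads of the 55, with 479 at 11 °C and 430 at 25 °C in the authors' deposited table (FDR 0.299). The other, at the gene's end beside kcc and CG2812, had 84.0 and 84.4 reads at 11 °C and 25 °C in the authors' deposited table (FDR 0.899).

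Genes with many peaks have more chances to hold a called one. The 6 muscle genes with 4 or more peaks (Svil, Msp300, Zasp52, Mef2, how and Zasp66) carried 40 of the 55 peaks and 17 of the 20 calls. Of these 6, 2 had a call higher at 11 °C and 6 a call higher at 25 °C, where 40.5% and 60.1% of all protein-coding genes with 4 or more peaks had one. The other 3 calls, all higher at 25 °C, were at Mhc, mspo and Strn-Mlck.

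Further muscle genes, listed by function, are given with their called peaks, to be read against 10.0% and 12.2% of all peaks called higher at 11 °C and at 25 °C. Counts of genes with a peak are to be read against 59.4% of all protein-coding genes. Of 29 peaks at 17 of 20 other sarcomere genes (Actn, tmod and zormin among them) 3 were called higher at 11 °C and 2 higher at 25 °C (10.3% and 6.90%), with a median log2 difference of -0.02. For muscle attachment genes such as the integrin and talin genes it was 5 and 4 of 35 peaks (14.3% and 11.4%), and for the dystrophin complex 3 and 3 of 13. A peak was present at 15 of 15 attachment genes and at 7 of 8 genes of the dystrophin complex. Talin's gene rhea held both directions, with 91.7 reads at 11 °C and 38.7 at 25 °C for a peak at 3L, 8549660 to 8550060, and 14.0 and 38.0 reads at 8570143 to 8570543, in the authors' deposited table (FDRs of 2.94e-10 and 1.18e-08). Genes of muscle excitation gave 2 and 4 of 19 peaks, and 9 of 19 genes had a peak. The 10 without one include the calcium channel gene Ca-alpha1D and the glutamate receptor genes GluRIIA to GluRIIE. Myogenic regulators gave 1 and 3 of 29 peaks (3.45% and 10.3%), with a peak at 13 of 22 genes, near the share of all protein-coding genes. The RNA-binding factor gene bru1, a regulator of flight muscle splicing, held their most changed peak, with 16.3 reads at 11 °C and 60.4 at 25 °C in the authors' deposited table (ratio 3.71, FDR 1.39e-12). Their 1 peak called higher at 11 °C, at hth, had 382 reads at 11 °C and 219 at 25 °C in the authors' deposited table (ratio 0.574, FDR 4.22e-08). Myoblast fusion genes gave 5 and 2 of 21 peaks, with a peak at 6 of 11 genes. Their most changed peaks both lay at kirre, a receptor gene of muscle founder cells, with 243 reads at 11 °C and 132 at 25 °C beside the gene N, and 64.8 and 128 reads beside Syx4, in the authors' deposited table (FDRs of 7.09e-12 and 4.23e-09). The cytoplasmic actin and myosin genes, which all cells use, all had peaks, with 1 and 0 of 12 called. With so few peaks these shares are coarse, and none is read as a difference from all peaks.

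Markers of other cell types were counted in the same way, against the same 10.0% and 12.2% of all peaks. Summed over its peaks in the authors' deposited table, the list of 35 muscle genes had 7855 normalised reads at 11 °C and 8431 at 25 °C. Fat body markers, of which 14 of 16 genes had a peak, had 8248 and 9733 reads at 11 °C and 25 °C, with 4 and 8 of 38 peaks called higher at 11 °C and at 25 °C (10.5% and 21.1%). The 4 calls lay at 4 of these genes and the 8 at 3. The most changed were at Lsp1beta, with 206 reads at 11 °C and 123 at 25 °C, and at apolpp, with 40.4 and 214. Their FDRs in the authors' deposited table were 3.66e-08 and 5.17e-38. Fbp1 and Fbp2 were the fat body genes without a peak. Oenocytes are lipid-handling cells beneath the cuticle, and all 8 of their marker genes had a peak. Their 23 peaks summed to 4860 reads at 11 °C and 5284 at 25 °C, with 0 and 10 called (43.5% higher at 25 °C). The most changed, at the desaturase gene Fad2, had 52.3 reads at 11 °C and 143 at 25 °C in the authors' deposited table (FDR 0.000283). Of 9 hemocyte markers 3 had a peak, with 0 and 2 of 4 called, and the defining markers Hml, eater and He had none. For trachea and epidermis it was 4 and 0 of 7 peaks, with 1437 reads at 11 °C and 1165 at 25 °C, and btl was without a peak. The most changed of the 4, at the epidermal factor gene grh, had 147 reads at 11 °C and 75.1 at 25 °C in the authors' deposited table (FDR 1.25e-08). Heart and pericardial markers gave 2 and 1 of 8 peaks, neuron markers 2 and 1 of 6, and ovary markers 0 and 1 of 6. These numbers, and those of hemocytes and of trachea and epidermis, are too small to set against the share of all peaks. Summed reads at 11 °C and 25 °C were 780 and 775 for hemocytes and 1083 and 1022 for heart. They were 1087 and 1008 for neurons, 937 and 1094 for ovary, and 1.55e+06 and 1.51e+06 over all peaks. Whether other tissue in the dissections has a part in the muscle gene differences was not tested.

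**Figure D5:**
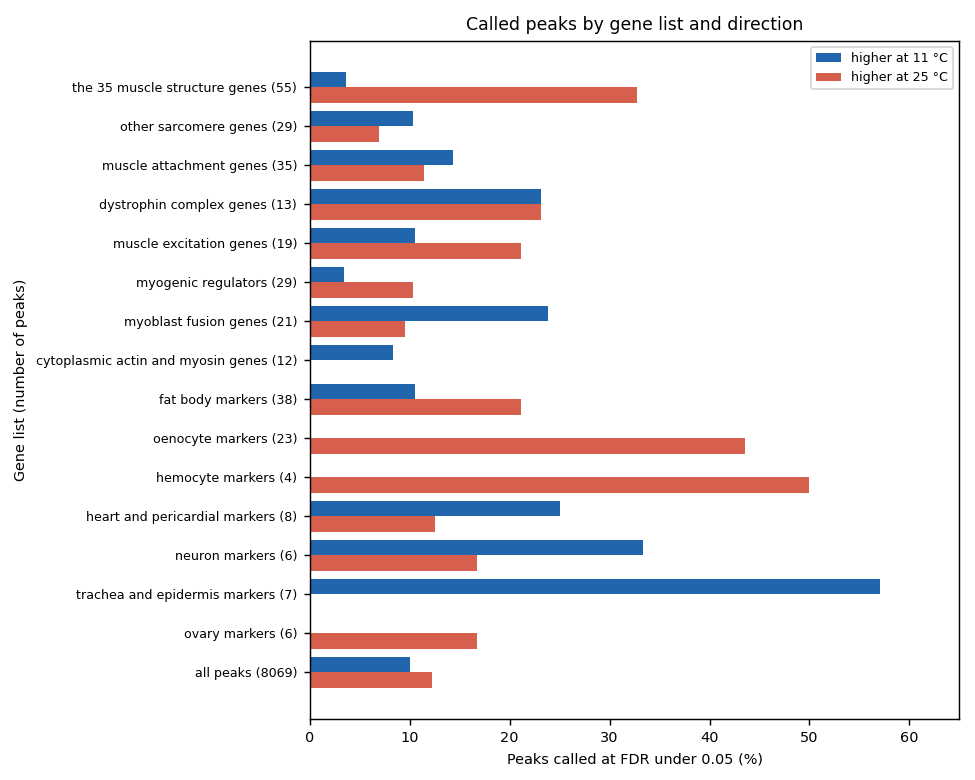
Share of peaks called at an FDR under 0.05 (x axis, percent) higher at 11 °C (blue, upper bar of each pair) and higher at 25 °C (red, lower bar), for the 35 muscle structure genes, 14 other gene lists and all peaks, with the number of peaks in brackets. The 35 genes have 3.64% and 32.7%, the oenocyte list 0 and 43.5%, and lists of under 10 peaks give coarse shares.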

How the data were processed

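ATAC-seq libraries were made from dissected fat body with the omni-ATAC variant, per the labels' protocols. The build was dm6, and the tools were DiffBind, MACS2, Bowtie2, Picard, SAMtools, bedtools, Trim Galore, cutadapt and FastQC, per the submitters' processing notes. Versions, transposase offset, duplicate handling, peak merging and scaling are not given in the sources used here. Scaling could shift all fold changes by 1 factor. Per the file headers, the deposited table gives log2 mean concentrations of normalised reads, a log2 fold change, and a p-value with its FDR, which equals a Benjamini-Hochberg adjustment over 8069 peaks. Normalised reads here are 2 to the power of the deposited log2 concentration. The fitted fold changes are smaller than the concentration differences (slope 0.805).

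Libraries are not listed singly, so nothing was refitted, and counts are set beside those of all peaks without a test. Of the 35 symbols 34 matched RefSeq directly and 1 by synonym. Of 170 entries in 14 other lists, 166 matched by symbol, 3 by synonym and 1 not at all. Members and lists were chosen with earlier results of these data known. All 35 genes are named, with values for every called peak and for the peak with the most reads of each role, and for a few of the other lists their most changed called peaks. Further peaks and genes were chosen after their values were seen. The assignment was tested on simulated data. Python 3.11.15, pandas 2.3.3 and numpy 2.4.6 were used.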

Additional observations from a re-analysis of the deposited data

How the results depend on the processing

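No paired analysis was possible because libraries are not listed singly, and for the same reason no replicate could be left out. Higher accessibility was called at 2 peaks for 11 °C and at 18 for 25 °C, and under each alternative run the larger number was that for 25 °C. Without the lowest of 4 equal bins of peaks by reads, 30 peaks remained, since 11 of the 18 calls and other peaks lie in that bin. Of the 30, 2 were called higher at 11 °C and 7, at 5 genes, higher at 25 °C. All peaks gave 11.2%, 8.38% and 12.7% at 11 °C in the next 3 bins, and 12.6%, 7.93% and 3.87% at 25 °C. The median difference was 0.047 in place of 0.107 (log2, 25 °C minus 11 °C). The few calls higher at 11 °C became 4 peaks at 4 genes at an FDR under 0.1. They became 1 peak at 1 gene with peaks of no other gene, with a ratio of at least 1.5-fold besides the FDR, or without Svil, an alternative chosen after seeing the data. With peaks of no other gene the median was 0.25, and with fitted fold changes it was 0.0665. The remaining 30 values, among them those at an FDR under 0.01 and with other assignment windows, stayed within 1.5 times. At the most changed called peak of each of the 9 genes, the fitted fold change and the log2 difference had the same sign. This is no check, since calls took their direction from the fitted fold change. Among all 8069 peaks, 0 called ones had opposite signs. Depth is unknown.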

Other observations

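The 18 muscle genes without a peak were not far from one in general. The distance from the gene to the nearest peak midpoint had a median of 4470 bp over the 18, against 7037 bp over the 5660 protein-coding genes without a peak. It was smallest for TpnC73F, with 1123 bp, and largest for TpnC4, with 85683 bp. Act57B was 30687 bp from its nearest peak and sls 6935 bp. Of the 313 protein-coding genes of 50000 bp or more, 93 had no peak. Besides sls and bt these include the potassium channel genes Sh, eag, Shab and Elk, the cadherin genes CadN and CadN2, and sns, a gene of myoblast fusion. These examples were chosen after the list was seen.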
